A study of Mus musculus with 6 samples.

Results

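The chitinase family of the mouse stomach was followed in 7 genes: the chitinases Chia1 and Chit1, the chitinase-like genes Chil1, Chil3 and Chil4, and the more distant relatives Chid1 and Ctbs. They were picked by name as the chitinase relatives among the 34866 rows of a gene count table, with the difference between the genotypes already known, and all 7 were among the 14017 genes with enough counts to be tested. Their differences are therefore given as descriptions, with no test. Bulk RNA was sequenced from gastric mucosa taken at the antrum, where the stomach meets the duodenum. The genotypes were Muc6 +/+ (wild type 1 to 3) and Muc6 -/- (knockout 1 to 3), with 3 libraries of each. Muc6 encodes a gel-forming mucin of the antral glands, and the series asks how its loss relates to gastric carcinogenesis. Strain, age, sex and the way the allele was made are not stated in the labels, nor whether the libraries of a genotype came from separate animals.

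Chitinases cut chitin, the polymer of N-acetylglucosamine found in insects, crustaceans and fungi. Chitinase-like proteins keep the same fold and can bind sugars, but have lost the catalytic residue. In mice the stomach is a main site of acidic chitinase, a digestive enzyme that works at low pH, while Chil3 (Ym1) and Chil4 (Ym2) are secreted proteins known for their rise in type 2 immune responses, in macrophages, neutrophils and some epithelia. Ctbs acts in lysosomes on the sugar chains of glycoproteins, and Chid1 is a chitinase-like protein that binds the macrophage receptor stabilin-1.

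The sequence that separates enzymes from chitinase-like proteins is a short active-site stretch, shown here because it sorts the members in another way than their levels did. Each line gives 36 coding bases from the GENCODE M21 transcript with the longest coding sequence. Capitals mark the codon at the place of the catalytic glutamate, found by aligning each translated sequence with that of Chia1.
Chia1: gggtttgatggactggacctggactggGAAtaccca
Chit1: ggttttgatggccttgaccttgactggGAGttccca
Chil1: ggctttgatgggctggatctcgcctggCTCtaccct
Chil3: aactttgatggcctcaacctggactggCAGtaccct
Chil4: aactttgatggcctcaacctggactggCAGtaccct
Ctbs: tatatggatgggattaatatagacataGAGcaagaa
Chia1 and Chit1 carried a glutamate codon (GAA and GAG) there, at codon 140 of both. Chil3 and Chil4 carried the glutamine codon CAG, and the printed 36 bases were the same in both. Chil1 carried the leucine codon CTC. Ctbs had the glutamate codon GAG but matched the motif of the chitinases only in part, and Chid1 could not be aligned over this stretch without a gap.

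Chil3 and Chil4 are close copies, which bears on how their reads could be counted. Their coding sequences shared 1139 of 1194 aligned bases, 94.4% of the longer one, whereas the other 20 pairs of members shared 48.0% to 64.9%. Their transcripts of 1539 bases each held an identical run of 136 bases. Of all 50-base stretches of Chil3, 18.5% were found letter for letter in Chil4, and of all 100-base stretches 3.75% were. No other pair of members shared a 50-base stretch.

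Total estimated counts were 19839799 to 21354029 per library. Levels are in CPM, counts per 1000000 of the library size scaled for composition (TMM). A log2 fold change sets the knockout against the wild type, with its standard error (SE), and comes from edgeR's quasi-likelihood fit over all tested genes. Muc6 was at 396, 403 and 510.1 CPM in the wild-type libraries 1, 2 and 3, while the knockout libraries held 0.0425, 0 and 0 CPM. The Y-linked gene Ddx3y was at 40.5 ± 1.06 CPM in the knockout and at 0.165 ± 0.142 CPM in wild type (SD, n = 3 each), so sex and genotype coincide and cannot be told apart in any difference below. Wild type 1 and knockout 1 stood apart from the other 4 libraries on the second principal component (47.6 and 35.6 against -32.7 to -13.5), which held 18.2% of the variance. Scaling to total counts moved the median change of all genes by 0.417 (log2), and each direction given here is relative to the median under composition scaling.

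Chia1, which encodes the acidic chitinase, was high in wild type and close to absent in the knockout. Wild type 1, 2 and 3 held 13.7, 46.4 and 53.0 CPM of Chia1, and knockout 1, 2 and 3 held 0.0425, 0.748 and 0.393 CPM. The groups did not overlap, and wild type 1 held the least of the wild-type libraries. Over each genotype this was 1990 counts against 28. The ratio of wild type to knockout was 93.8, with a 95% interval from 64.7 to 142 that covers counting error only, and the log2 fold change was -6.55 (SE 0.89). In bulk tissue, fewer cells of a type and less RNA per cell cannot be told apart.

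Chia1 is known from chief cells, which lie in glands with the acid-secreting parietal cells, so the markers of both are set beside it. For comparison with both lists, 19.2% of all tested genes were lower and 19.3% higher. Of the 8 chief cell markers 7 were tested, 3 fell (Pgc, Bhlha15 and Kcnj16) and none rose. The 8 summed to 4619, 4107 and 5591 CPM in wild type 1, 2 and 3 and to 147, 538 and 1186 CPM in knockout 1, 2 and 3. Pgc, a pepsinogen gene also made in the antrum, carried most of these sums. Of the 8 parietal cell markers 7 were tested, 5 fell and 1 rose (Kcnq1). They summed to 42.1, 276 and 325 CPM in the wild-type libraries 1, 2 and 3, and to 110.0, 50.6 and 59.9 CPM in the knockout libraries, where Kcnq1, a potassium channel gene of many epithelia, made up 104, 48.0 and 53.0 CPM of the sums. Wild type 1 was the lowest wild-type library for the proton pump gene Atp4a (7.28, 84.8 and 123 CPM), as it was for Chia1. It was not the lowest for the chief cell sums, which Pgc dominated, nor for Pgc, Bhlha15 and Gper1 themselves. Among the other chief cell markers it was the lowest for Gif (99.2, 152 and 194 CPM) and Kcnj16 (8.69, 24.6 and 24.1 CPM). The same held for Pga5, Cckar and Copz2. It was the lowest for summed macrophage markers too (12.2, 73.6 and 89.8 CPM), so a low value there is not particular to Chia1 and Atp4a. Bhlha15, Atp4b, Kcne2, Esrrg and Aqp4 had few knockout counts (40, 66, 5, 12 and 8). They entered the test through the wild type, so nothing is read from the counts of markers that fell. No marker of either list was at 0 in a whole genotype. The part of these cells in the difference of Chia1 was not tested.

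Chit1 encodes chitotriosidase, the other active chitinase, best known from macrophages, and it stood higher in the knockout. Its level was 3.26, 2.92 and 4.29 CPM over the wild-type libraries 1, 2 and 3, against 33.2, 41.8 and 74.1 CPM over the knockout libraries. The lowest knockout library lay above the highest wild-type one. The log2 fold change was 3.83 (SE 0.35), from 3.49 ± 0.713 to 49.7 ± 21.5 CPM (SD, n = 3 each). The 2 genes with an intact chitinase active site thus stood on opposite sides, Chia1 lower and Chit1 higher.

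Chil4, the chitinase-like Ym2, had the largest difference of the family. Its counts in wild type 1, 2 and 3 were 102, 0 and 10, and in knockout 1, 2 and 3 they were 43856, 40663 and 132164. In CPM this was 5.54, 0 and 0.580 against 1863, 1690 and 5764. Every knockout library held at least 1690 CPM, knockout 3 stood above the other 2, and most wild-type counts came from wild type 1. The log2 fold change was 10.55 (SE 1.61), and it was 13.37 without wild type 1. Per kilobase of its longest transcript, Chil4 ranked 24 of the 13988 tested genes with a length in the knockout and 10195 in wild type.

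Chil3, the Ym1 gene beside it, differed in the same direction at a far lower level. It had 0, 5 and 0 counts in wild type 1, 2 and 3 and 474, 143 and 626 counts in knockout 1, 2 and 3, which is 20.1, 5.94 and 27.3 CPM in the knockout. The groups did not overlap, with knockout 2 the lowest of its group. The log2 fold change was 7.48 (SE 1.11), and without wild type 2, the only wild-type library with Chil3 counts, it was 11.56, a value set by the prior count of the fit and no bound. The highest and lowest knockout libraries differed 4.59-fold for Chil3 and 3.41-fold for Chil4.

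Because reads of the 2 copies may be shared, the share of Chil3 in their summed counts is given for each library. It was 1.07% in knockout 1 (exact 95% binomial interval 0.976% to 1.17%), 0.350% in knockout 2 (0.295% to 0.413%) and 0.471% in knockout 3 (0.435% to 0.510%). These intervals cover counting error only, on estimated counts, and not the spread between libraries, so nothing is read from the differences among the 3 shares. In wild type the 2 genes together had 102, 5 and 10 counts. What part of the Chil3 counts came from Chil4 transcripts was not tested.

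Chil1 encodes a secreted lectin that binds chitin without cutting it, and was scarce in both genotypes. The wild-type libraries 1, 2 and 3 held 0.326, 0.281 and 0.290 CPM, and the knockout libraries 2.29, 1.33 and 1.53 CPM. The groups did not overlap. This was 16 counts against 121, and the log2 fold change was 2.50 (SE 0.47).

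Chid1 and Ctbs, the broadly expressed relatives, differed little. Chid1 levels were 53.8, 42.2 and 44.2 CPM over the wild-type libraries 1, 2 and 3, and 42.3, 37.6 and 39.6 CPM over the knockout libraries, so the groups overlapped. Its log2 fold change was -0.23 (SE 0.12), and it turned to 0.19 when libraries were scaled to total counts. Ctbs, the lysosomal chitobiase, held 11.0, 13.9 and 9.63 CPM over the wild-type libraries 1, 2 and 3, and 9.13, 6.65 and 7.85 CPM over the knockout libraries. These groups did not overlap, but by a narrow margin (9.63 against 9.13 CPM). The log2 fold change of Ctbs was -0.55 (SE 0.21), or -0.13 with total counts.

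**Figure D1:**
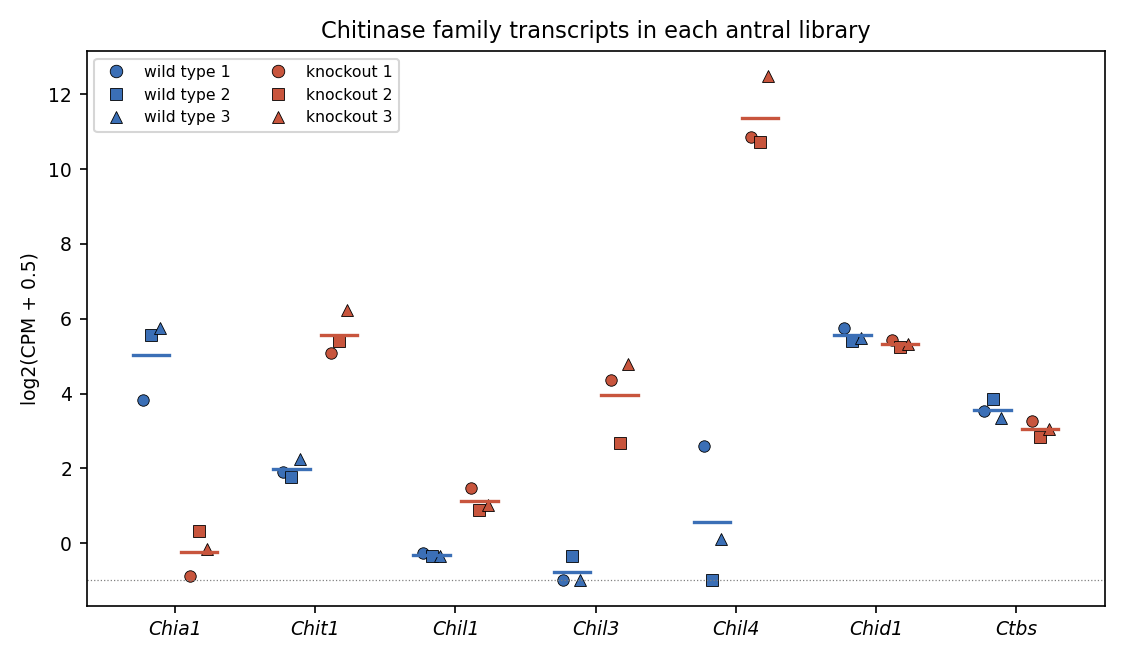
Levels of the 7 genes in each library as log2(CPM + 0.5), with wild type in blue, knockout in red, 1 symbol per library number and bars at the group means of the log values. The dotted line is a count of 0. Chil4 lies at 1690 to 5764 CPM in the knockout libraries, Chia1 runs the other way, and Chid1 overlaps between the genotypes.

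By edgeR at a false discovery rate of 0.05, 4 members (Chit1, Chil1, Chil3 and Chil4) were counted higher, 1 (Chia1) lower and 2 (Chid1 and Ctbs) in neither group. Among all tested genes 38.4% passed this threshold, 19.3% higher and 19.2% lower, and the members' libraries did not overlap between genotypes for 6 of 7 against 54.8% of tested genes. With limma-voom Chia1 and Chil3 did not pass, and without both libraries numbered 1 Chil3 did not and Ctbs was counted lower. Since the members were chosen with this comparison known, nothing is read from these counts. Chil1, Chil3 and Chil4 had few wild-type counts and entered the test through the knockout libraries, and Chia1 entered through the wild type.

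**Figure D2:**
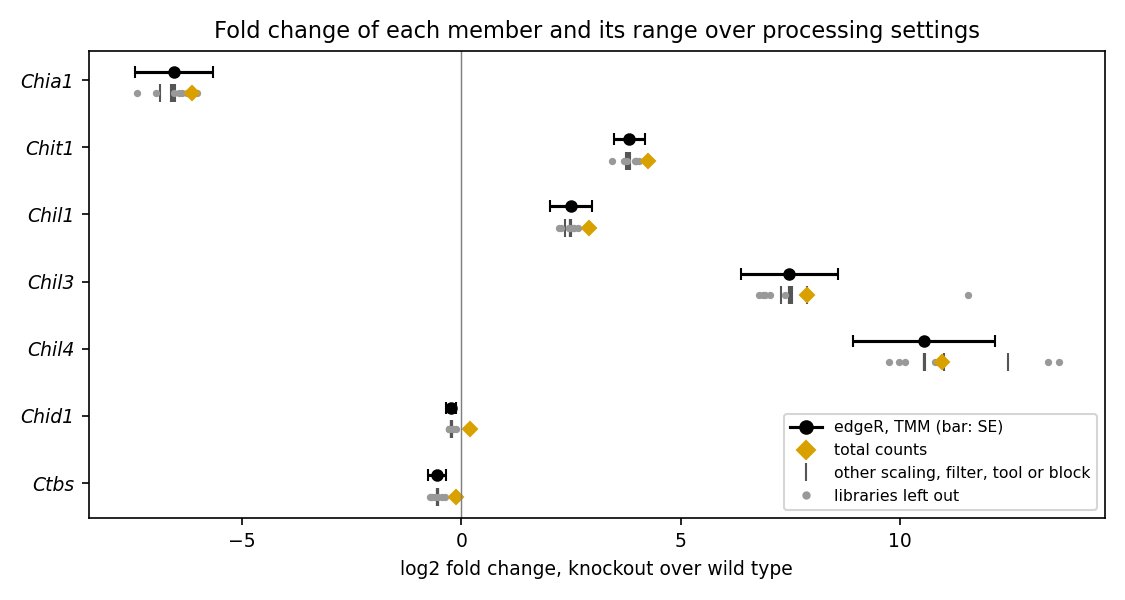
Log2 fold change of each member, knockout over wild type. Black points with SE bars are the edgeR fit with TMM scaling, diamonds are total-count scaling, ticks are other scalings, filters, tools or the replicate block, and grey dots are fits with libraries left out. Chia1 stays between -7.40 and -6.02 and Chit1 between 3.43 and 4.25, and Chid1 crosses 0 with total counts (0.19).

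The make-up of the family turned over between the genotypes. Per kilobase of the longest transcript, wild type was led by Chia1 (22.4 ± 12.5 CPM per kb), followed by Chid1 (6.92 ± 0.922), Ctbs (3.67 ± 0.695), Chit1 (1.92 ± 0.393), Chil4 (1.33 ± 1.98), Chil1 (0.163 ± 0.0129) and Chil3 (0.0609 ± 0.105). The intervals of mean ± SD overlapped for the neighbours Chit1 and Chil4, Chil4 and Chil1, and Chil1 and Chil3. That of Chil4 also overlapped those of Ctbs and Chil3. The place of Chil4 below Chid1 and the order of Chil1 and Chil3 are therefore not resolved. In the knockout the order was Chil4 (2018 ± 1497 CPM per kb), Chit1 (27.4 ± 11.9), Chil3 (11.6 ± 7.06), Chid1 (5.89 ± 0.353), Ctbs (2.51 ± 0.396), Chil1 (0.934 ± 0.277) and Chia1 (0.235 ± 0.210). Here the same intervals overlapped for Chit1 and Chil3, and for Chil3 and Chid1. Chia1 thus went from the first place to the last. With the union of exons as length, Chit1 (1.92 CPM per kb) and Ctbs (1.90) changed places in wild type, and the order in the knockout was unchanged.

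Summed over the 7 genes, the level per kilobase was 25.2, 40.2 and 44.0 CPM per kb in wild type 1, 2 and 3 and 1253, 1134 and 3813 CPM per kb in knockout 1, 2 and 3. Chil4 made up 96.7% to 98.2% of the knockout sums. In wild type Chia1 made up 32.3% of the sum in library 1, 68.6% in library 2 and 71.6% in library 3, and Chid1 made up 14.9% to 31.6%.

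The 3 members with the largest differences lie side by side. On chromosome 3 (mm10, GENCODE M21), Chia1 (ENSMUSG00000062778.12) spans chr3:106113229-106132120 on the plus strand, Chil3 (ENSMUSG00000040809.10) spans chr3:106147554-106167564 and Chil4 (ENSMUSG00000063779.6) spans chr3:106201490-106219507, both on the minus strand. All 3 fit within 106278 bases. Chia1 was 15434 bases from Chil3 and differed in the opposite direction. The nearest tested genes outside the 3 were Wdr77, a methylosome gene, with a log2 fold change of 0.21 (edgeR adjusted p = 0.229), and Dennd2d with -0.24 (adjusted p = 0.183). The other relatives in the cluster, Ovgp1, Chil5 and Chil6, were too low to be tested, with mean levels of 0.0931 to 0.240 CPM without the mutation and 0.244 to 0.501 CPM with it.

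Chit1 (ENSMUSG00000026450.14, chr1:134111242-134151540) and Chil1 (ENSMUSG00000064246.10, chr1:134182176-134190181) form a second pair on the plus strand of chromosome 1, 30636 bases apart. Their outer neighbours were Btg2, an antiproliferative gene, with 113 ± 12.3 CPM in the wild-type and 113 ± 21.5 CPM in the knockout libraries, and the adenosine receptor gene Adora1, with a log2 fold change of 0.24 (edgeR adjusted p = 0.767). Ctbs (ENSMUSG00000028189.12) lies alone at chr3:146449795-146465849. It overlaps Spata1 on the other strand by 8654 bases, and whether counting used the strand is not given, so reads of the 2 cannot be told apart there. Spata1 went from 2.28 ± 0.777 to 1.06 ± 0.136 CPM and did not pass the test (edgeR adjusted p = 0.0706). Of the neighbours on either side, the G protein subunit gene Gng5 fell by 0.46 on the log2 scale (SE 0.10, adjusted p = 0.00975), and the centrosomal gene Ssx2ip had a log2 fold change of 0.40 (adjusted p = 0.191).

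Chid1 (ENSMUSG00000025512.15, chr7:141493136-141539857, minus strand) lies 93599 bases from Muc6. It is the member closest to the disrupted gene and, under composition scaling, the one with the smallest difference. The tested genes nearest to it were Polr2l, an RNA polymerase II subunit gene, with a log2 fold change of 0.38 (edgeR adjusted p = 0.0945), and Ap2a2, a clathrin adaptor gene, with 0.28 (adjusted p = 0.185). Tspan4, a tetraspanin gene that overlaps the end of Chid1 by 292 bases on the other strand, rose by 1.89 (SE 0.23, adjusted p = 0.00113), from 5.36 ± 0.344 to 19.8 ± 5.28 CPM.

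**Figure D3:**
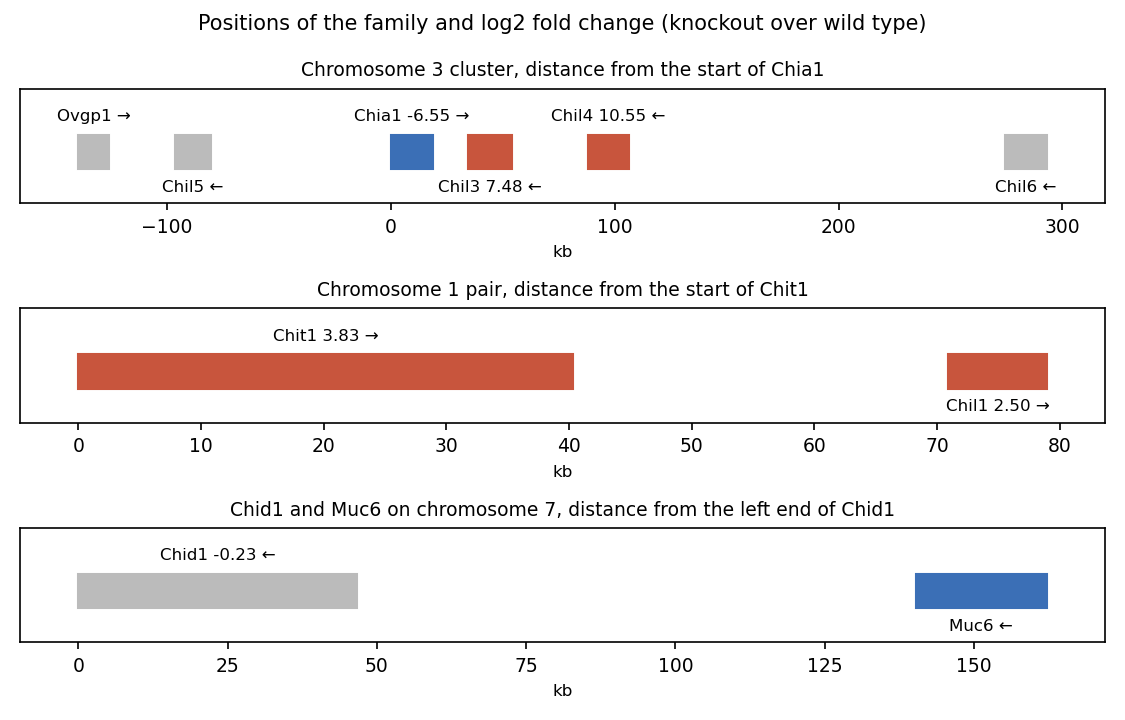
Gene positions to scale in kb from a gene's start or left end, with arrows for the strand and the log2 fold change beside each tested family gene. Red and blue boxes passed the false discovery rate of 0.05 as higher and lower, and grey boxes did not pass or were not tested. Chia1 (-6.55) sits next to Chil3 (7.48) and Chil4 (10.55), and Chid1 (-0.23) lies on the same stretch of chromosome 7 as Muc6.

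The upstream sequences of Chil3 and Chil4 are shown because these neighbours moved together. They are the 250 bases before the RefSeq start on the minus strand of GRCm38.p6, chr3:106167565-106167814 for Chil3 and chr3:106219480-106219729 for Chil4. Capitals mark a STAT-type palindrome, TTCNNNGAA.
Chil3: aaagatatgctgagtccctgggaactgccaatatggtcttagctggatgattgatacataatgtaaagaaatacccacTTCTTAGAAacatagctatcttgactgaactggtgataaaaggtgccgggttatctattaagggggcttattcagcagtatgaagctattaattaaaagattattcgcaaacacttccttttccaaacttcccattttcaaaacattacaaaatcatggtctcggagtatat
Chil4: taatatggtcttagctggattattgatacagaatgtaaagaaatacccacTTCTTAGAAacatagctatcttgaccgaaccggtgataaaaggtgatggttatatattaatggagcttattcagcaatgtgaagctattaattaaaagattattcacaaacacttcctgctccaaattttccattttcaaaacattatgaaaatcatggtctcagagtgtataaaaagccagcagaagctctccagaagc
Of the 250 bases in each window 221 could be aligned, and 201 of these were the same. The share of 80.4% is taken over all 250 bases, so unaligned bases count as different. The Chil4 window begins and ends further along the shared sequence than that of Chil3. The positions of the match given next carry this offset. Both windows held 1 match to TTCNNNGAA with the same letters, starting at base -172 in Chil3 and -200 in Chil4, counted from the start site. A match to TTCNNNGAA was found in 7.04% of 32544 RefSeq windows of this length, and a match to TTCNNNNGAA, the STAT6-type spacing, in 5.89%. Both patterns read the same on either strand. Neither Chil3 nor Chil4 held TTCNNNNGAA, and the windows of the other 5 members held neither pattern. A match is a description of the letters and not a binding site.

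Genes of the type 2 response, in which Chil3 and Chil4 are known to rise, were taken as a list. Of its 29 genes 21 were tested, and 6 rose, 1 fell and 14 did not pass, with a median log2 fold change of 0.40 against 0.02 over all tested genes. Higher calls make up 19.3% of all tested genes. Of the 6 that rose, Il2rg, Socs1 and Ccl22 (11 counts in wild type) entered the test through the knockout libraries. So did Il1rl1, which was near the floor in wild type 1 (0.326 CPM). Nothing is therefore read from the share of the list. Il33, an epithelial alarm cytokine, held 37.4, 54.6 and 35.0 CPM over the wild-type libraries 1, 2 and 3 against 160.0, 148 and 193 CPM over the knockout libraries, and rose by 1.98 (SE 0.20, edgeR adjusted p = 6.31e-04). Il4ra, the receptor chain shared by interleukins 4 and 13, rose by 2.52 (SE 0.29, adjusted p = 0.00127), from 16.0 ± 2.63 to 92.0 ± 36.2 CPM. Il2rg, the common gamma chain of several cytokine receptors, rose by 5.27 (SE 0.69, adjusted p = 0.00150) on 5 wild-type counts, and Socs1, a feedback inhibitor of cytokine signalling, rose by 3.26 (SE 0.52, adjusted p = 0.00313) on 7. With total counts 10 rose and none fell, where 5730 of all 14017 tested genes rose.

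Il4, Il5, Il13 and Il25 were scarce, unlike Il33. Il4 held 0.221 ± 0.161 CPM in the wild-type and 0.296 ± 0.109 CPM in the knockout libraries, and the genes of this paragraph were picked after their values were seen. Il13 and Il5 had no counts in wild type and were at 0.0432 ± 0.0436 and 0.0568 ± 0.0492 CPM in the knockout, and Il25, an epithelial cytokine, had none there either and reached 0.155 ± 0.0617 CPM. Tslp, another epithelial cytokine, went from 1.03 ± 0.213 to 0.352 ± 0.254 CPM and did not pass (edgeR adjusted p = 0.106). Stat6, which carries the signal of interleukins 4 and 13, was at 72.8 ± 9.86 and 72.3 ± 9.27 CPM, with a log2 fold change of -0.01 (SE 0.14, adjusted p = 0.965). Other genes often read with Chil3 did not pass the test: Arg1, an arginase, went from 4.64 ± 1.46 to 13.5 ± 16.4 CPM, Retnla from 1.53 ± 1.41 to 0.382 ± 0.335 CPM and Mrc1, a mannose receptor, from 4.53 ± 3.13 to 5.05 ± 0.556 CPM (edgeR adjusted p = 0.248, 0.254 and 0.860). Retnlb, a goblet cell resistin-like gene, had no counts in wild type and 0, 4.03 and 11.9 CPM over the knockout libraries. Arg1 in the knockout was carried by library 1, at 32.4 CPM against 4.49 and 3.58 CPM in the other 2.

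Il1rl1, the receptor of interleukin 33, and Clca1, a secreted goblet cell protein, are named after their values were seen. Il1rl1 held 0.326, 11.6 and 8.41 CPM over the wild-type libraries 1, 2 and 3 against 71.8, 279 and 238 CPM over the knockout libraries, and rose by 4.85 (SE 1.17, edgeR adjusted p = 0.0260). Leaving out library 2 or 3 of either genotype ended its call (adjusted p from 0.0626 to 0.0870), and so did testing unfiltered genes (0.0694). Clca1 was the member of the list that fell, from 3299 ± 809 to 2145 ± 309 CPM, by 0.62 on the log2 scale (adjusted p = 0.0449), and its call ended under 8 of 14 alternatives, among them total counts (0.438), the replicate block (0.0925) and the fits without wild type 1, wild type 2, any 1 knockout library (0.0708 to 0.115) or both libraries numbered 1 (0.0581).

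Of 8 reported binding partners of chitinase-like proteins, 6 were tested, 3 rose, 1 fell and 2 did not pass, with a median log2 fold change of 1.03. Among all tested genes 19.3% were higher and 19.2% lower. Il13ra2, a receptor for interleukin 13 that also binds the Chil1 protein, had 2 counts in wild type and 121 in the knockout, a ratio of 45.8 with a 95% counting interval of 12.4 to 383 (edgeR adjusted p = 0.00269). Il13ra2 entered the test through the knockout libraries. Cd44, a hyaluronan receptor, rose by 1.27 (SE 0.22, adjusted p = 0.00512), from 155 ± 45.7 to 375 ± 48.2 CPM. Sdc1, a heparan sulfate proteoglycan, rose by 0.79 (SE 0.17, adjusted p = 0.00926), from 186 ± 35.9 to 323 ± 45.3 CPM. Lgals3, a galectin, fell by 1.03 on the log2 scale (SE 0.28, adjusted p = 0.0262), a call lost on leaving out wild type 1, wild type 3 or knockout 2 (adjusted p from 0.0616 to 0.0698), with total counts (0.113) and with the replicate block (0.0642). Stab1, the partner of the Chid1 protein, held 0.217, 1.46 and 2.78 CPM over the wild-type and 4.50, 4.74 and 4.67 CPM over the knockout libraries and did not pass (adjusted p = 0.107). Ptgdr2 had no counts in any library.

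Ctbs acts in the breakdown of glycoproteins in the lysosome, so other genes of lysosomal glycan breakdown were listed. All 16 were tested, 6 rose, none fell and 10 did not pass, with a median log2 fold change of 0.45 against 0.02 over all tested genes. Among all tested genes 19.3% were higher and 19.2% lower. With total counts 12 of the 16 rose, where 5730 of all 14017 tested genes did and the median of all genes moved by 0.417. The mannosidase gene Man2b1 rose by 1.44 (SE 0.11, edgeR adjusted p = 3.25e-04), from 31.8 ± 2.99 to 86.2 ± 5.78 CPM. Hexa, a subunit of beta-hexosaminidase, rose by 1.22 (SE 0.14, adjusted p = 9.82e-04), Ctsa, a protective protease of the same organelle, by 0.97 (adjusted p = 0.00133) and the beta-galactosidase gene Glb1 by 0.87 (adjusted p = 0.00153). Aga, which acts just before Ctbs on the same chain, had a log2 fold change of -0.17 (SE 0.18, adjusted p = 0.481), beside -0.55 for Ctbs itself. Aga was picked after its values were seen.

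**Figure D4:**
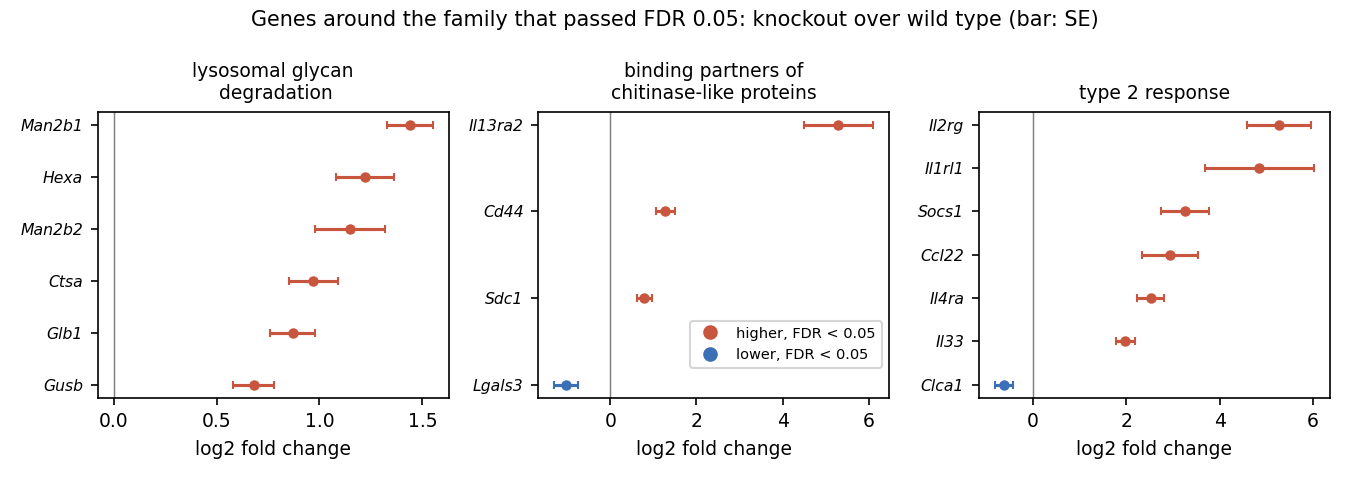
Log2 fold change, knockout over wild type, with SE bars, of the genes of 3 lists around the family that passed edgeR's false discovery rate of 0.05. Red is higher and blue lower, and genes that did not pass are not drawn. In the lysosomal list 6 of 16 tested genes are higher and none lower, among the binding partners 3 of 6 are higher and 1 lower, and in the type 2 list 6 of 21 are higher and 1 lower. Over all tested genes 19.3% are higher and 19.2% lower.

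Cells known to make Chit1, Chil1, Chil3 and Chil4 were followed by their markers. Macrophage markers summed to 12.2, 73.6 and 89.8 CPM over the wild-type libraries 1, 2 and 3 and to 122, 101 and 106 CPM over the knockout libraries, and none of the 10 tested of 11 passed the test, with a median log2 fold change of 1.06. Over all tested genes 38.4% passed. None of the 11 macrophage markers was at 0 in a whole genotype. The sums for neutrophil markers were 0.435, 0.506 and 1.16 CPM without the mutation and 719, 43.4 and 25.5 CPM with it. Of 11 neutrophil markers 5 were tested and 2 rose (Csf3r and Ltf), where 19.3% of all tested genes rose. Both had 5 counts in wild type and entered the test through the knockout libraries. Ly6g, Elane, Camp and Ngp had no counts in wild type, and Elane had none in the knockout either. Ltf, which glands also make, carried most of the knockout sums, at 542, 39.9 and 20.7 CPM. Neutrophil markers were highest in knockout 1, whereas Chil4, Chil3 and Chit1 were highest in knockout 3 and Chil1 in knockout 1.

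Squamous epithelium, which lines the forestomach, was checked in the same way. Of its 11 markers 5 were tested and 4 rose, and the 11 summed to 5.45 to 11.4 CPM in wild type and 153 to 169 CPM in the knockout. Beside this list and those that follow, 19.3% of all tested genes were higher and 19.2% lower. Ivl, Krt4 and Krt14 had 34, 15 and 2 counts in wild type and entered the test through the knockout libraries. The 4 that rose were Ivl (involucrin), from 0.632 ± 0.246 to 102 ± 34.0 CPM, Krt13, by 2.96 on the log2 scale (SE 0.74) to 46.9 ± 32.5 CPM, Krt4, from 0.278 ± 0.142 to 6.12 ± 2.82 CPM, and the basal keratin Krt14, from 0.0387 ± 0.0670 to 1.29 ± 0.571 CPM (edgeR adjusted p = 1.54e-04, 0.0279, 0.00153 and 0.00806). Of the markers too low to be tested, the basal keratin Krt5 went from 0.0187 ± 0.0325 to 0.413 ± 0.139 CPM and Trp63 from 0.0562 ± 0.0974 to 0.0970 ± 0.168 CPM, and Sprr3 had no counts in any library. Of 11 enterocyte markers 8 were tested, 3 rose and 1 fell, with sums of 979 to 1016 CPM in the wild-type libraries against 702, 1944 and 2286 CPM over knockout libraries 1, 2 and 3, and Cdx1 was at 0 in wild type. Single genes moving in opposite directions carried these sums. Fabp2, most of the wild-type sums, fell from 703 ± 43.5 to 103 ± 92.1 CPM. Alpi rose from 22.9 ± 5.80 to 944 ± 552 CPM and Vil1 from 220.2 ± 55.9 to 364 ± 7.51 CPM, together most of the knockout sums. Sis, which also rose, had 3 counts in wild type. Mucous cells of the glandular stomach were seen in the pit cell markers (168999 to 197133 CPM, falling to 41682 to 56395 CPM, with 6 of 7 lower) and the gland mucous cell markers (5260 to 7326 CPM, then 12907 to 17847 CPM, with 3 of 4 higher and Muc6 lower). Neither list tells antrum from corpus. The part of any of these cell types in the differences of the chitinase family was not tested.

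**Figure D5:**
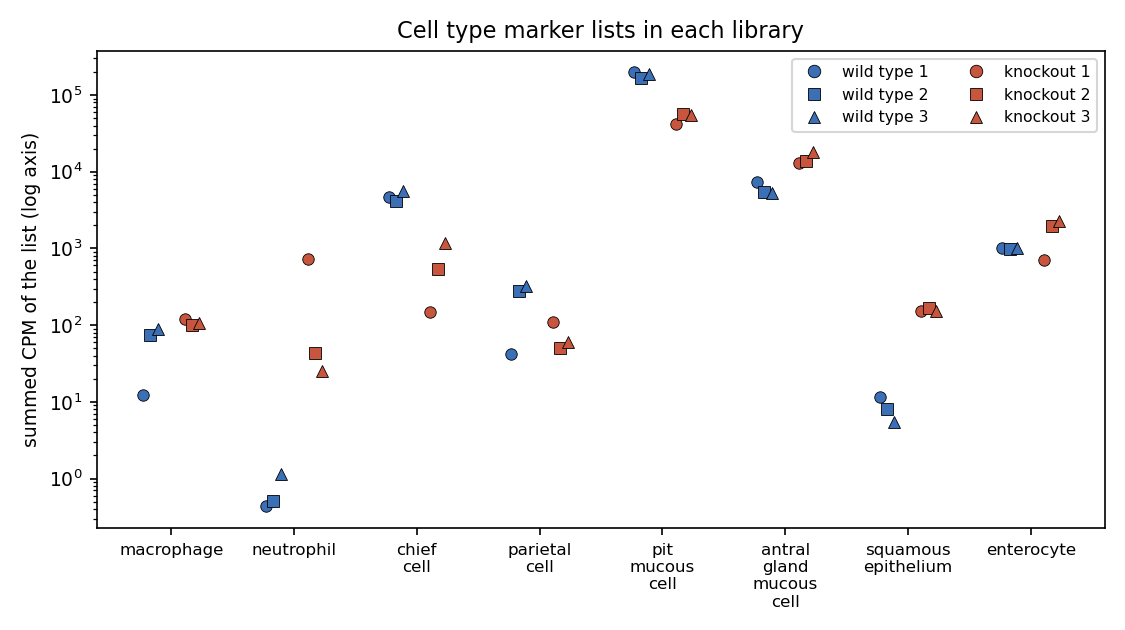
Summed CPM of 8 marker lists in each library on a log axis, with wild type in blue, knockout in red and 1 symbol per library number. Macrophage sums are 12.2 to 89.8 CPM in wild type and 101 to 122 CPM in the knockout, and neutrophil sums reach 719 CPM in knockout 1.

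Genes with the most similar profiles were sought by the root-mean-square difference of mean-centred log2(CPM + 0.5) values over the 6 libraries, as a description in which genotype is the main axis. For Chil4 these were the antibody genes Igha (1.43) and Igkc (1.79) and Gp2, which encodes a bacteria-binding glycoprotein (2.05). Knockout 1, 2 and 3 held 207, 114 and 406 CPM of Igha, with knockout 3 the highest as for Chil4. For Chil3 they were Hba-a2, a haemoglobin gene (0.563), the antibody gene Iglv1 (0.595) and Lcn2, a siderophore-binding lipocalin (0.595). For Chit1 they were the antibody gene Iglc1 (0.196), Arg2, a mitochondrial arginase (0.235), and Ntng1 (0.299). Antibody genes were thus among the nearest profiles of Chit1, Chil3 and Chil4, with 2 limits. Iglc1 and Iglv1 had no counts in wild type, so the added 0.5 set their wild-type values. Their fitted log2 fold changes were 9.69 and 10.79, against 3.83 for Chit1 and 7.48 for Chil3. For Chil4 even the nearest profile was 1.43 log2 units away.

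For Chia1 the nearest profiles were Dthd1 (0.718), Pla2g1b, a secreted phospholipase (0.761), and Atp4a (0.868). Pla2g1b held 13.3, 42.5 and 33.2 CPM over the wild-type libraries, with number 1 the lowest as for Chia1, and 0.595, 1.83 and 2.05 CPM over the knockout libraries. Chil1 lay closest to Stk10, a kinase (0.0821), and to Runx3 (0.0857) and Nfatc2 (0.0962), transcription factors of lymphocytes. Chid1 lay closest to Alas1, the first enzyme of haem synthesis (0.0324), Uckl1 (0.0373) and Ift46 (0.0392), and Ctbs to Trappc2, a vesicle tethering gene (0.0658), Gin1 (0.0755) and Olfr354 (0.0784).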

How the data were processed

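RNA of antral mucosa was extracted with a Nucleospin kit and made into libraries with a TruSeq Stranded mRNA kit, per the labels' protocols. The authors deposited estimated counts for each gene in 1 table. That unit was read from the values, of which 28.8% to 34.3% of those above 0 in a library were not whole. The build was mm10 per the submitters' processing notes. Which aligner, counter, strand setting and annotation were used was not given in the sources used here.

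Counts were rounded to whole numbers. Of 34866 identifiers, 34582 matched GENCODE M21, which gave symbols, positions and lengths. Libraries were grouped by genotype. Nothing says that they came from separate animals, so a p-value reflects only how these libraries spread, perhaps for technical reasons. Pairs of one genotype differed beyond sampling noise (chi-square over degrees of freedom, 16.0 to 79.6).

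Genes kept by filterByExpr were tested with edgeR 4.0.16 (TMM, robust quasi-likelihood fit, Benjamini-Hochberg over all 14017 genes, false discovery rate 0.05) in R 4.3.3. The fit was tested on simulated data. SE is the log2 fold change divided by the square root of the F statistic. Coding sequences, and their translations for the active site (BLOSUM62), were aligned with Biopython 1.88. Promoters are from RefSeq (GRCm38.p6), where all 7 members matched. Identity is given for coding bases in place of the protein identity planned.

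The members and lists were chosen with earlier results of these data known. Genes named are the members, for each member whose own mean is at least 1 CPM the 3 nearest profiles, in each list up to 4 genes that passed with the lowest adjusted p, and the tested genes beside each member. Other list and marker genes, and genes overlapping a member, were added after their values were seen. Chia2, listed as a further relative, was not analysed here. Alternatives were RLE and total-count scaling, other filters, DESeq2 1.42.0, limma-voom (limma 3.58.1), the replicate number as a block and libraries left out.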

Additional observations from a re-analysis of the deposited data

How the results depend on the processing

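Of 406 comparisons of a value with an alternative, for the counts of called genes and the log2 fold changes of the members and the list genes named by rule with Il1rl1 and Clca1, 364 kept their direction and side of the threshold or moved by less than the spread or a factor of 1.5, and none of the called values reversed. With total counts 5730 genes were higher and 1091 lower against 2699 and 2687, a share of 84.0% against 50.1% higher. In that setting lysosomal genes numbered 12 higher, type 2 genes 10 higher and 0 lower, and binding partners 0 lower. Members lower numbered 0 with limma-voom, where Chia1 and Chil3 did not pass, and 2 without both libraries numbered 1, where type 2 genes numbered 4 lower. Leaving out 1 library gave 0 to 1 lower for lysosomal genes (1 without wild type 2), 0 to 1 for binding partners and 0 to 1 for type 2 genes. Over all genes the counts were 1600 and 1742 in the absence of wild type 2, and 1810 and 1721 in that of knockout 2. With DESeq2 1 lysosomal gene was lower. The cause of these shifts was not tested. Whether the replicate numbers pair the libraries was not settled. Deviations from the group means correlated at 0.26, 0.08 and 0.18 for numbers 1, 2 and 3. Between unlike numbers they correlated at -0.29 to 0.29, with wild type 3 and knockout 2 the highest. With 3 libraries a genotype these correlations cannot decide it. With the replicate block 2572 genes were higher and 2497 lower, 1 lysosomal gene was lower and 0 binding partners were lower. Genes with few counts in a group, such as Chil1 and Chil3 in wild type, limit the precision of their fold changes, and 3 libraries a genotype limit all of them.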
